A study of Mus musculus with 4 samples.

Results

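The genes described here are 10 components of the basement membrane: the collagen IV chains Col4a1, Col4a2, Col4a5 and Col4a6, the laminin chains Lama3, Lama5, Lamb1 and Lamc1, and the proteins Nid1 and Hspg2 that join the collagen and laminin networks. They were chosen as a list of gene symbols out of 32285 genes in the files, and all 10 were present. Single cells were profiled from the ascites of female FVB mice that carried intraperitoneal Br-Luc tumors, a mouse ovarian cancer line without p53 and Brca1 and with Myc and myristoylated Akt, 6 weeks after the cells were injected. Mice received either a control siRNA (siCont) or an siRNA against Fxr1 (siFXR1-LNA). Both carried locked nucleic acid (LNA) modifications and were given intraperitoneally in jetPEI nanoparticles, so that every mouse had the tumor, the carrier and an LNA-modified siRNA. Each group held 2 libraries, and each library pooled the ascites of several mice, so that mice could not be told apart within a library. The study set aside a siFXR1-LNA replicate with fewer reads from its own account and did not name it, and both are used here. Of the siFXR1-LNA libraries, replicate 2 had fewer UMIs and barcodes.

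Basement membranes are sheets of matrix under epithelia and around vessels. Collagen IV chains assemble in threes into protomers, of which the a1-a1-a2 and the a5-a5-a6 forms concern the chains described here. Laminins are trimers of 1 alpha, 1 beta and 1 gamma chain that bind cell receptors, and nidogen and perlecan, the products of Nid1 and Hspg2, connect them to collagen IV. In the peritoneal cavity the mesothelium rests on such a sheet, and ovarian tumor cells adhere to its components.

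Collagen IV genes lie in head-to-head pairs, and windows around the starts of Col4a2, Col4a5 and Col4a6 are shown because the results turn on these chains. The Nid1 window is shown because Nid1 had another cell distribution than the other members. The windows are from RefSeq (GRCm38.p6), which held one for 8 of the 10 members, and run 5′ to 3′ on the strand of the gene. Capitals mark matches on either strand to GGGCGG (the GC box), CCAAT (the CCAAT box), TATAAA (the TATA box) and CCCTCCCC (the CTC box known from collagen IV promoters).
Col4a2 (GRCm38.p6, chr8:11312555-11312854, plus strand): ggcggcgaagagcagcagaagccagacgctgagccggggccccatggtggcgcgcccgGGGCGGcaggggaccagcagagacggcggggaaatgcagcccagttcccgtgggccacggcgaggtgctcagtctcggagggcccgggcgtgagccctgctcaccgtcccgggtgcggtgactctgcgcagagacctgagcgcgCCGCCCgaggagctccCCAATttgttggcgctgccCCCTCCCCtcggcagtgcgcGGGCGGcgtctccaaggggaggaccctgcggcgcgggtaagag
Col4a6 (GRCm38.p6, chrX:141474027-141474326, minus strand): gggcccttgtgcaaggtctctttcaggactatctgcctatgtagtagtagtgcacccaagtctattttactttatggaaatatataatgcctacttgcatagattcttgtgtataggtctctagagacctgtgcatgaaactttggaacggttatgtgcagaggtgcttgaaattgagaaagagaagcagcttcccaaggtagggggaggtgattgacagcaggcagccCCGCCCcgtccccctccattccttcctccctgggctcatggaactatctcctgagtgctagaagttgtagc
Col4a5 (GRCm38.p6, chrX:141475169-141475468, plus strand): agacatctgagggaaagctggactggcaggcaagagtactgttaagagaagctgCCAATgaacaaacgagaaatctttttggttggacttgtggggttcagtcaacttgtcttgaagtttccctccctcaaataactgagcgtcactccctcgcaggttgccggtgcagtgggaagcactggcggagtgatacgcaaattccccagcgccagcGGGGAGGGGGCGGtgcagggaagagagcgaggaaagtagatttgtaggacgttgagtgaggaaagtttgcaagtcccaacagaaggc
Nid1 (GRCm38.p6, chr13:13437352-13437651, plus strand): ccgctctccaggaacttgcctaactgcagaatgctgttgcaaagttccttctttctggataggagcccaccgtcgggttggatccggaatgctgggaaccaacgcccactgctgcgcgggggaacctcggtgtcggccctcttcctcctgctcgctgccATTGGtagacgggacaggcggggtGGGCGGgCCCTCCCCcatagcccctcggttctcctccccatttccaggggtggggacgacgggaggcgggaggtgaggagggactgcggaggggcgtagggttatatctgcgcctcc
The windows of Col4a1 and Col4a2 shared 78 bases, so both genes start within 1 stretch of DNA. Those of Col4a6 and Col4a5 were 842 bases apart. All 8 windows held GGGCGG, which 35.7% of 32851 windows of the same length held. CCCTCCCC was in 5 of the 8, those of Col4a1, Col4a2, Col4a5, Lama5 and Nid1, against 10.8% of all windows, and in that of Col4a5 it overlapped the GC box. CCAAT was in 5 of the 8, against 37.4%, and TATAAA in 0 of the 8, against 13.6%. The Col4a6 window had 48.3% G and C and that of Col4a2 73.7%. In GENCODE vM21 on GRCm38, Col4a1 spans chr8:11198423-11312826, Col4a2 chr8:11312805-11449287, Col4a5 chrX:141475385-141689234 and Col4a6 chrX:141165403-141474076.

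The libraries held 17309 to 54665 barcodes and 78179267 to 113606837 UMIs, and 132644 cells passed the limits on genes and mitochondrial UMIs. RNA of red cells was uneven, with hemoglobin at 29.5% and 41.1% of UMIs under siCont against 10.0% and 9.11% under siFXR1-LNA. Any pair of libraries shared between 575 and 2846 barcodes. Of 12 clusters, 1 was named from tumor or mesothelial markers and held 2865 cells: 848, 123, 1478 and 416 in siCont replicates 1 and 2 and siFXR1-LNA replicates 1 and 2, the order used throughout. The cluster had 6 of 10 markers raised, with Wt1 at 937, 1061, 1124 and 737 CPM (a gene's UMIs per 1000000 UMIs of the summed cells). The marker levels were not the same in the groups. Upk3b was at 437, 365, 154 and 151 CPM and Muc16 at 303, 272, 79.0 and 64.6 CPM. Krt8 overlapped between the groups, at 181, 167, 121 and 232 CPM, and Epcam was low, at 2.47 to 17.6 CPM. The 10 markers summed to 2540, 2534, 1849 and 1836 CPM. Tumor and mesothelial cells share these markers and were not separated here. The study divided its own epithelial cells by inferred copy number. Of 7 endothelial markers, Cdh5 was at 0 UMIs in these cells and Egfl7 had 1 UMI, while Kdr was at 54.0, 42.2, 20.1 and 8.82 CPM, and the 7 summed to 80.1, 77.7, 34.0 and 31.2 CPM. Of 5 pericyte or smooth muscle markers, Rgs5 was at 0 UMIs, and the 5 summed to 18.4, 46.1, 6.74 and 43.2 CPM. The 7 fibroblast markers summed to 687, 1397, 566 and 708 CPM. Dcn gave 446, 641, 511 and 497 CPM of this, while the fibrillar collagens were less even. Col1a1 was at 53.8, 177, 8.87 and 58.6 CPM and Col3a1 at 84.3, 311, 14.6 and 50.1 CPM. No cluster was named after any of these types, and their part in the results was not tested. Fxr1, the target of the siRNA, had 109 and 125 CPM in these cells where the label was siCont, and 140 and 139 CPM where it was siFXR1-LNA. The log2 fold change of Fxr1 was 0.28 (SE 0.23, adjusted p = 0.51, edgeR). The target was therefore not lower in these cells of the libraries labelled siFXR1-LNA, and the directions below are those of the labels. The study itself reported Fxr1 as lower in siFXR1-LNA epithelial cells of its own clustering, by a rank sum test over cells and without 1 replicate. In the siFXR1-LNA libraries 75.4% and 31.9% of the cells were in 1 shallow cluster without a name, against 0.121% and 0.171% under siCont. The list with the largest part raised there was tumor or mesothelial, with 3 of 10 markers, where a name needed 50% of a list. Its leading genes were Ccn2, Tfrc, Dcn, Hspb1 and Ndrg1. Whether this cluster holds tumor or mesothelial cells was not tested.

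Of the 10 members, 9 had their highest level in the tumor or mesothelial cells in all 4 libraries, among cell types with at least 50 cells in a library. Nid1 was the exception and was highest in B cells in all 4. These orders are descriptions, because the cells were clustered on their genes. The tumor or mesothelial cells gave 5.84%, 1.24%, 8.05% and 4.57% of all UMIs in the 4 libraries, but 73.2%, 61.8%, 71.6% and 76.7% of the UMIs of Col4a6, the alpha 6 chain of the a5-a5-a6 network. For Lamc1, the gamma 1 chain found in most laminins, they gave 37.9%, 14.9%, 25.8% and 22.2%. Most Lamc1 UMIs thus lay outside this cluster, where the unnamed cluster was counted. The same held in all 4 libraries for Lamb1 (18.1% to 37.4%), Lama3 (13.4% to 41.8%), Lama5 (31.9% to 48.8%) and Hspg2 (25.6% to 47.2%). For Nid1 they gave 5.43%, 2.46%, 16.4% and 19.0%.

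Col4a6 was at 132 and 121 CPM in the tumor or mesothelial cells of the siCont libraries and at 320 and 229 CPM in those of the siFXR1-LNA libraries. Both siFXR1-LNA libraries were above both siCont libraries, with replicate 1 the highest. This was a log2 fold change of 1.15 (SE 0.27, adjusted p = 0.029, by the quasi-likelihood test of edgeR, Benjamini-Hochberg adjusted), and Col4a6 was the 1 member of 10 past the threshold. Of all 13114 genes tested, 7.87% passed it, so that 1 of 10 is near the background. The call did not hold without siCont replicate 1, siCont replicate 2 or siFXR1-LNA replicate 1, with adjusted p = 0.16, 0.075 and 0.077, and did without siFXR1-LNA replicate 2.

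Col4a5, its head-to-head neighbor, was at 168 and 173 CPM and at 317 and 219 CPM. The groups did not overlap, and the log2 fold change of 0.69 (SE 0.27) did not pass the threshold (adjusted p = 0.16, edgeR). Col4a2, a chain of the a1-a1-a2 network that is found in nearly every basement membrane, was at 43.0 and 106 CPM and at 119 and 108 CPM. Here siCont replicate 1 stood low and the other 3 libraries lay close together (log2 fold change 0.71, SE 0.38, adjusted p = 0.29, edgeR). Without siCont replicate 2, a library with 123 of these cells, the change of Col4a2 was 1.48 and passed (adjusted p = 0.0043, edgeR), and without siCont replicate 1 it was 0.070 (adjusted p = 0.96). Col4a1, the other chain of that network, was at 60.5 and 86.3 CPM and at 76.5 and 94.5 CPM, and its groups overlapped (log2 fold change 0.26, SE 0.26, adjusted p = 0.59, edgeR).

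Among the laminin chains, Lamc1 was at 159 and 126 CPM and at 243 and 233 CPM. Lamb1, the beta 1 chain that pairs with gamma 1, was at 64.7 and 52.8 CPM and at 102 and 94.8 CPM. In both genes the 2 siFXR1-LNA libraries lay above the siCont libraries and close to each other. Their log2 fold changes of 0.77 (SE 0.24, adjusted p = 0.081) and 0.76 (SE 0.24, adjusted p = 0.079) missed the threshold by edgeR. Lama5, the alpha chain of the broadly distributed epithelial laminins, was at 108 and 132 CPM and at 120 and 134 CPM, with overlapping groups (log2 fold change 0.10, SE 0.24). Lama3, an alpha chain of epidermal-type laminins, was low, at 16.4 and 12.5 CPM and at 17.9 and 22.4 CPM (log2 fold change 0.44, SE 0.29), and rested on 13 to 159 UMIs a library. The values of all members by library are shown in the plot of levels in these cells.

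**Figure D1:**
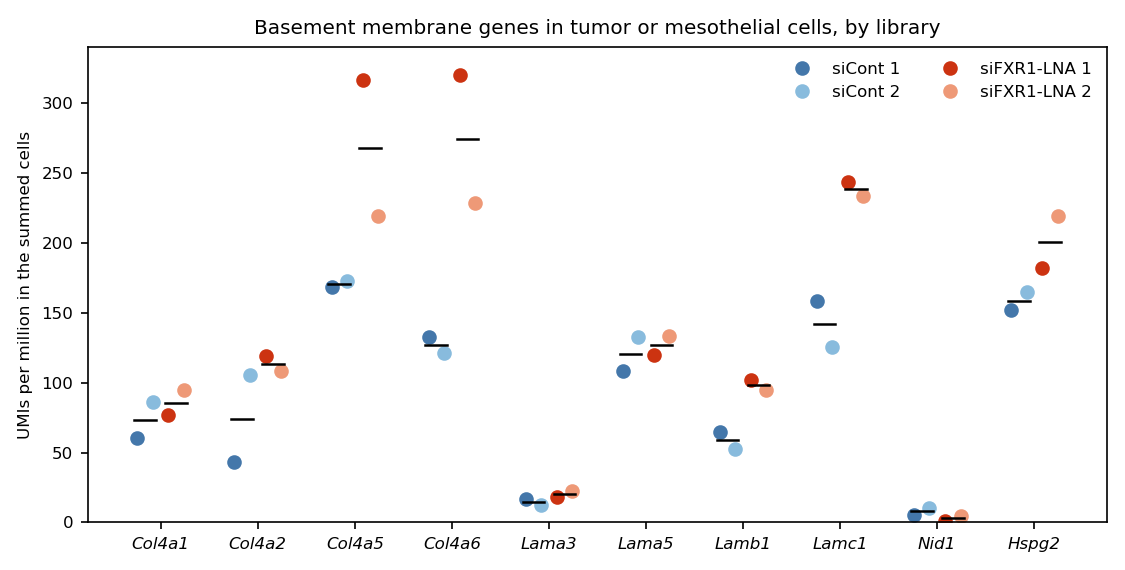
Level of each member in the tumor or mesothelial cells, in CPM (linear axis), with 1 point per library and a black line at the mean of each group of 2 libraries. Col4a6 has both siFXR1-LNA points, 320 and 229, above both siCont points, 132 and 121, and Lama5 has overlapping groups.

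Hspg2, the heparan sulfate proteoglycan perlecan, was at 152 and 165 CPM and at 182 and 219 CPM (log2 fold change 0.36, SE 0.23, adjusted p = 0.39, edgeR). Nid1 had 30, 11, 11 and 15 UMIs in these cells, or 5.24, 10.6, 1.24 and 4.73 CPM (log2 fold change -1.42, SE 0.70, adjusted p = 0.25, edgeR). On leaving out 1 library the change of Nid1 ran from -2.43 without siFXR1-LNA replicate 2 to -0.62 without siFXR1-LNA replicate 1. In 8 of the 10 members the groups did not overlap in CPM, in 7 of them with siFXR1-LNA higher. Of all genes tested, 53% did not overlap, and 26.3% did so with siFXR1-LNA higher. The median log2 fold change of the 10 members was 0.56, and that of all genes tested was 0.0024. Of the 10, 4 had an unadjusted p under 0.05 by edgeR, as had 3116 of the 13114 genes tested. Without siFXR1-LNA replicate 2, Col4a5, Lamb1 and Lamc1 also passed the threshold, with 2088 genes called in all.

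The share of collagen IV UMIs that were of Col4a5 or Col4a6 differed more between libraries than between groups. It was 74.4% (1720 of 2312 UMIs, 95% exact Clopper-Pearson interval 72.6 to 76.2) and 60.5% (306 of 506, 56.1 to 64.8) in the siCont libraries. It was 76.5% (5670 of 7412, 75.5 to 77.5) and 68.8% (1421 of 2064, 66.8 to 70.8) in the siFXR1-LNA libraries. The groups overlapped (two-sided exact permutation test, p = 0.67). Within the pair, Col4a6 gave 44.1% and 41.2% of the Col4a5 and Col4a6 UMIs under siCont, against 50.3% and 51.1% under siFXR1-LNA. These groups did not overlap, with p = 0.33 by the exact permutation test, the smallest that 2 libraries against 2 allow. Lama3 gave 13.2%, 8.61%, 13.0% and 14.3% of the laminin alpha UMIs counted here (Lama3 and Lama5), with overlapping groups (exact permutation test, p = 0.67). The intervals cover counting error only, and the shares compare libraries, not the amounts of the chains, since genes differ in how many UMIs a transcript gives.

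The share of cells with a Col4a6 UMI was also described, from the same counts. With each cell thinned to 1000 UMIs, 14.1% and 10.7% of the siCont tumor or mesothelial cells and 25.6% and 22.3% of the siFXR1-LNA cells had a Col4a6 UMI (830, 121, 1470 and 413 cells). In B cells the share was 0.200%, 0.124%, 0.806% and 0.315%, and in T cells 0.395%, 0.0936%, 0.808% and 0.343%. Before thinning the tumor or mesothelial shares were 45.0%, 44.7%, 66.9% and 62.3%, at median depths of 5880.5, 8489, 5235.5 and 6686.5 UMIs, against 2023 to 2720 UMIs in B cells. Thinning left out 31 tumor or mesothelial cells in all. The thinned shares of Col4a5 in these cells were 19.3% and 15.7% under siCont and 28.0% and 18.6% under siFXR1-LNA, with overlapping groups. The groups also overlapped for Col4a1, Lama5, Nid1 and Hspg2, and did not for Col4a2, Lama3, Lamb1 and Lamc1. Lama3 rested on 10, 1, 24 and 8 cells with a UMI. How many of all genes do not overlap by this measure was not determined, so nothing particular to the members is read from it.

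The tumor or mesothelial cells fell into 4 sub-clusters that were not spread evenly over the groups. Sub-cluster 0, led by Vegfa and Ndrg1, had 21 of its 1427 cells in siCont libraries, and sub-cluster 1, led by Diaph3 and Mki67, had 41 of its 669 in siFXR1-LNA libraries. They were pooled here, because sub-cluster 0 had 15 and 6 cells in the siCont libraries and sub-cluster 1 had 28 and 13 in the siFXR1-LNA libraries. The pool therefore sets mostly sub-cluster 1 of the siCont libraries against mostly sub-cluster 0 of the siFXR1-LNA libraries. Sub-cluster 2 (422 cells) was led by Slpi, collagen I genes and leukocyte genes. Nid1 was at 31.2, 71.1, 4.94 and 29.7 CPM there, against 0 to 0.327 CPM in sub-clusters 0 and 1 and 0 to 1.64 CPM in sub-cluster 3. Its summed fibroblast markers were at 1613, 5975, 549 and 1570 CPM, and the part of that admixture in the Nid1 values was not tested. The naming rule called sub-cluster 2 mixed, and the fibroblast list had the largest part raised there (4 of 7). Its cells were kept in the main fits, while mixed sub-clusters of macrophages and T cells were left out of those types. Without sub-cluster 2, 957 genes were called in the tumor or mesothelial cells, against 1032 in the main fit. Sub-cluster 3 (347 cells) had all 10 tumor or mesothelial markers raised and a median of 11047 UMIs a cell.

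Col4a6 was at 38.8 and 31.8 CPM in sub-cluster 3 of the siCont libraries and at 43.6 and 43.3 CPM in that of the siFXR1-LNA libraries. In sub-clusters 0 and 1 it was at 196 and 165 CPM and at 377 and 320 CPM. Within sub-cluster 1 alone it was at 196 and 160 CPM and at 308 and 181 CPM, the last from 22 UMIs, and the groups overlapped. The log2 fold change was 0.89 (SE 0.25, adjusted p = 0.045, edgeR) in sub-clusters 0 and 1, where 11.2% of genes were called, and 0.34 (SE 0.29, adjusted p = 0.65) in sub-cluster 3, where 2.65% were. The difference between the 2 changes was -0.45 and not past the threshold (adjusted p = 0.84, edgeR with the library as a block), so the changes were not shown to differ. Lamb1 was the other member called in sub-clusters 0 and 1, at 66.2 and 61.3 CPM against 120 and 126 CPM (log2 fold change 0.88, SE 0.23, adjusted p = 0.037, edgeR). Within sub-cluster 1 alone Lamb1 was at 65.8 and 63.2 CPM and at 118 and 57.5 CPM, the last from 7 UMIs, so that siFXR1-LNA replicate 2 lay below both siCont libraries. In sub-cluster 3 Lamb1 was at 60.6, 19.9, 42.6 and 31.0 CPM (log2 fold change -0.32, SE 0.36, adjusted p = 0.76), and the difference of its changes was -1.12 (unadjusted p = 0.0031, adjusted p = 0.14, edgeR). Malat1, a nuclear RNA, was at 36603 and 38813 CPM and 24223 and 26296 CPM in sub-clusters 0 and 1 and at 4053 to 7121 CPM in sub-cluster 3. Its part in the difference of Col4a6 levels between sub-clusters was not tested. In sub-cluster 2, where 1.42% of genes were called, Col4a6 was at 109 and 84.1 CPM and at 274 and 188 CPM (log2 fold change 1.2004, SE 0.33, adjusted p = 0.13, edgeR). Of the Col4a5 and Col4a6 UMIs in sub-cluster 3, Col4a6 gave 35.1% and 40% under siCont and 36.8% and 44.3% under siFXR1-LNA. These groups overlapped (exact permutation test, p = 0.67), while those in sub-cluster 2 and in sub-clusters 0 and 1 did not. The 3 fits by sub-cluster were added after the sub-clusters had been seen.

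**Figure D2:**
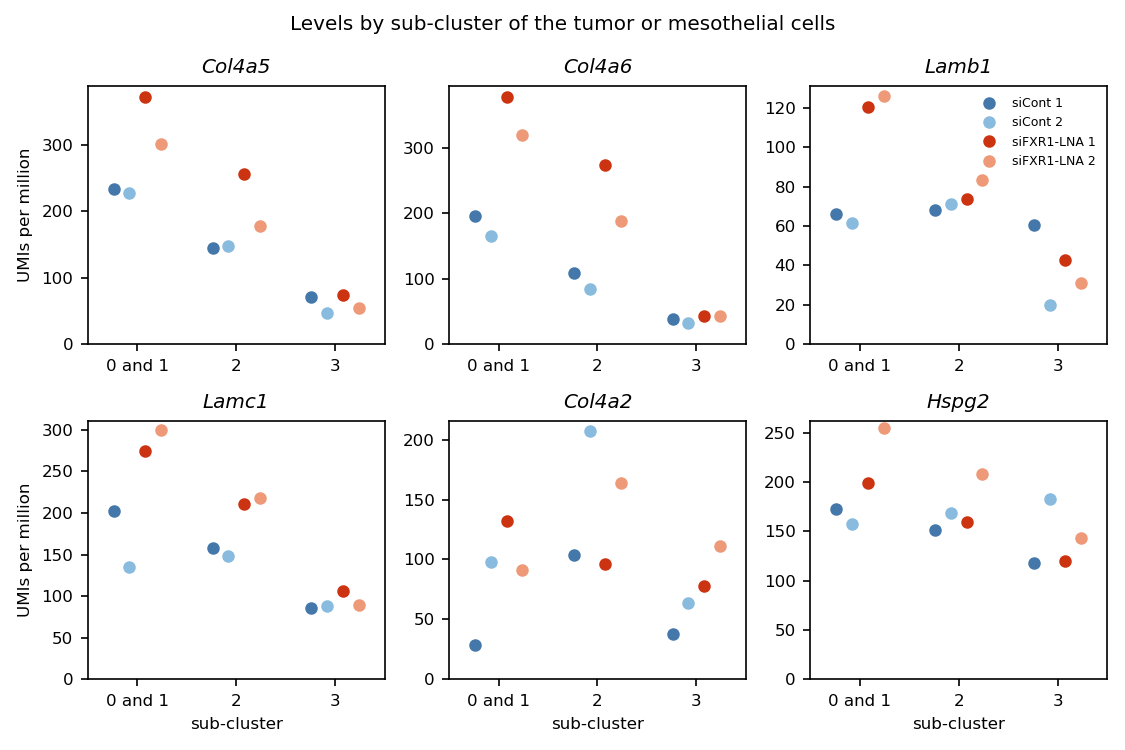
Level of 6 members (CPM, linear axis from 0) in sub-clusters 0 and 1 together, 2 and 3 of the tumor or mesothelial cells, with 1 point per library. Col4a6 in sub-cluster 3 runs from 31.8 to 43.6 and in sub-clusters 0 and 1 from 165 to 377, with the siFXR1-LNA points on top.

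Gene length was set beside the changes in these cells, and its part in them was not tested. Genes over 200 kb in GENCODE vM21, among them Col4a5, Col4a6 and Lama3 with 214, 309 and 249 kb, had a median log2 fold change of -0.14, and those of 100 to 200 kb, among them Col4a1, Col4a2, Lamc1 and Hspg2, one of 0.042. The change of Col4a6 was above that of 94.97% of the genes over 200 kb, that of Col4a5 above 87.3% and that of Lama3 above 79.4%.

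Other basement membrane genes were listed apart from the members. In these fits too, most tumor or mesothelial cells were of sub-cluster 1 in the siCont libraries and of sub-cluster 0 in the siFXR1-LNA libraries. Among the other collagen IV, laminin and linker genes, Lamb2, the beta 2 chain of laminins, was at 45.5, 36.5, 54.9 and 88.8 CPM (adjusted p = 0.11, edgeR). Lama4, an alpha chain of vascular and mesenchymal laminins, was at 42.8, 23.0, 81.2 and 49.8 CPM (adjusted p = 0.11, edgeR). Col4a3 and Col4a4, chains of the a3-a4-a5 protomer, were at 4.10 to 8.39 and 5.99 to 12.2 CPM.

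Of 15 associated proteins, 10 were tested, 1 rose and 2 fell, with a median of -0.94, where 7.87% of all genes tested were called. Tinagl1, a matrix glycoprotein, rose from 11.01 and 16.3 CPM to 29.5 and 50.1 CPM (log2 fold change 1.64, SE 0.34, adjusted p = 0.018, edgeR). Fras1, which anchors epithelia to the underlying matrix, fell from 314 and 345 CPM to 97.7 and 113 CPM (log2 fold change -1.63, SE 0.24, adjusted p = 0.0041, edgeR). Egflam, or pikachurin, a dystroglycan ligand, fell from 46.5 and 106 CPM to 7.07 and 23.0 CPM (log2 fold change -2.39, SE 0.52, adjusted p = 0.022, edgeR). Sparc, a collagen-binding protein and the most abundant of the list, was at 1042 and 914 CPM and at 684 and 895 CPM, and Hmcn1 at 299 and 391 CPM and at 135 and 277 CPM. Neither passed the threshold.

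All 13 genes of collagen IV processing were tested, 3 rose and 0 fell, with a median of 0.17, where 7.87% of all genes tested were called. P4ha1, the prolyl 4-hydroxylase subunit that stabilises collagen helices, rose from 91.8 and 172 CPM to 326 and 335 CPM (log2 fold change 1.37, SE 0.32, adjusted p = 0.028, edgeR). Its paralog P4ha2 rose from 6.82 and 13.4 CPM to 93.8 and 47.9 CPM (log2 fold change 3.09, SE 0.45, adjusted p = 0.0042). The lysyl hydroxylase Plod2 rose from 70.8 and 120 CPM to 239 and 177 CPM (log2 fold change 1.19, SE 0.32, adjusted p = 0.049). P4hb, the partner of the P4ha subunits and the most abundant of the list, was at 196, 236, 233 and 307 CPM. Serpinh1, the collagen chaperone, was at 201 and 157 CPM and at 57.2 and 141 CPM and did not pass.

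Of 13 receptor genes, 12 were tested and 0 passed by edgeR or DESeq2, with 1 at an unadjusted p under 0.05 by edgeR and a median of -0.19. Sdc4, a heparan sulfate receptor, was at 526, 412, 610 and 608 CPM and Itgb1, the shared beta chain of most matrix integrins, at 213, 257, 320 and 308 CPM. Itga3, a laminin-binding integrin chain, was at 85.0 and 81.5 CPM and at 42.8 and 52.9 CPM (adjusted p = 0.062).

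**Figure D3:**
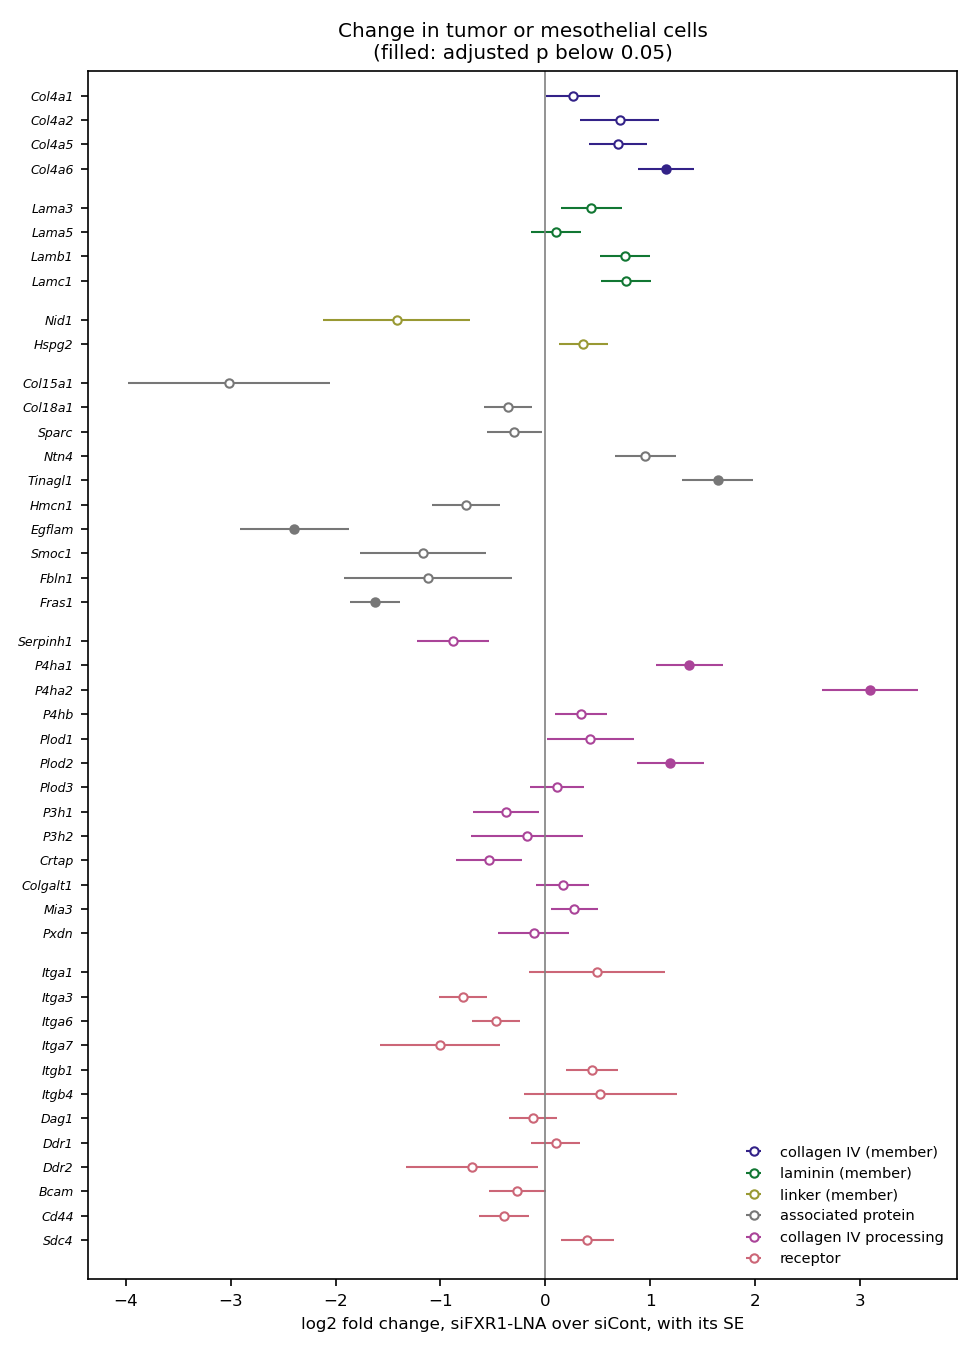
Log2 fold change with its SE (edgeR, siFXR1-LNA over siCont, 2 libraries against 2) of the members and of the tested associated, processing and receptor genes in the tumor or mesothelial cells, with filled points past an adjusted p of 0.05. Col4a6 at 1.15 is the filled member, and P4ha2 at 3.09 is the highest of those plotted.

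Outside the tumor or mesothelial cluster the level of the members depended on the type and library. In macrophages, the 8 members other than Lamc1 and Nid1 had a median of 3.73%, 1.03%, 7.98% and 2.47% of their level in the tumor or mesothelial cells of the same library. In T cells the medians were 7.09%, 1.24%, 22.005% and 7.35%, in B cells 6.01%, 1.62%, 18.8% and 5.68%, and in granulocytes 6.58%, 3.01%, 19.9% and 9.14%. In each of these 4 types siFXR1-LNA replicate 1 was the highest and siCont replicate 2 the lowest. In the unnamed cluster, which held most cells of siFXR1-LNA replicate 1, the median there was 27.0% and the highest member 50.3%, against 9.08% and 17.8% in siFXR1-LNA replicate 2. In the mast cells of siFXR1-LNA replicate 1 the median was 20.8% and the highest member 61.9%. Free RNA enters droplets of any cell, and its part in these low levels was not tested.

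Lamc1 was higher relative to its tumor or mesothelial level than the other members in macrophages. It was at 16.9 and 11.9 CPM in macrophages of the siCont libraries and at 64.5 and 50.2 CPM in those of the siFXR1-LNA libraries, from 391, 207, 1471 and 1655 UMIs. This was 10.7%, 9.47%, 26.5% and 21.5% of its tumor or mesothelial level, higher than for any of the other 8 members in every library. Lamc1 was not particular to macrophages: it was at 14.5%, 24.5%, 30.3% and 14.4% of that level in B cells and at 16.5%, 12.6%, 31.5% and 20.4% in T cells. Its log2 fold change was 2.18 (SE 0.22, adjusted p = 0.0077, edgeR), and it was called in all 13 alternatives tried, with changes of 1.93 to 2.42. Of 9 members tested in macrophages it was the 1 called, and 19.3% of 14299 genes were called there. In 5 of the 10 members the groups did not overlap in macrophages, in 3 of them with siFXR1-LNA higher, against 69.8% and 23% of all genes tested. Col4a2 was at 1.34, 0.805, 10.6 and 2.21 CPM (log2 fold change 2.76, SE 0.83, adjusted p = 0.077), with siFXR1-LNA replicate 1 far above the rest. Without siFXR1-LNA replicate 2 its change was 3.50 and passed (adjusted p = 0.035, edgeR).

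The macrophage cells themselves were not the same in the groups. Sub-cluster 0, led by Alox15 and Prg4 and with 1208 to 3012 cells a library, had Lamc1 at 19.8 and 18.4 CPM and at 40.9 and 31.4 CPM. Sub-cluster 4, led by Cacna1d, Lrmda and Nos2, had it at 29.7 and 19.96 CPM, from 9 and 3 UMIs, and at 139 and 148 CPM. Sub-cluster 1 (Saa3, Mt2) had 1 of its cells in siCont libraries, and sub-cluster 2 (Slfn4, Nr1h3) had 0 in siFXR1-LNA libraries. Sub-cluster 7, led by Pclaf and Birc5, had Lamc1 at 11.4 and 6.70 CPM and at 18.8 and 15.8 CPM, from 4 to 21 UMIs. In sub-clusters 0, 4 and 7, which had cells in all libraries, the siFXR1-LNA values were above the siCont values. The change of Lamc1 in macrophages exceeded that in tumor or mesothelial cells by 1.36 on the log2 scale (unadjusted p = 0.00087, adjusted p = 0.071, edgeR with the library as a block), which did not pass.

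Of the other lists, macrophages had 4 higher and 1 lower of 13 tested collagen IV processing genes, where 19.3% of all genes tested were called. P4hb rose from 250 and 264 CPM to 596 and 637 CPM (log2 fold change 1.45, SE 0.15, adjusted p = 0.0078, edgeR), and P4ha1, P4ha2 and Plod2 also rose, while Plod3 fell by 1.08 on the log2 scale. Sdc4 was the 1 receptor of 9 that rose, from 119 and 43.7 CPM to 987 and 868 CPM (log2 fold change 3.72, SE 0.50, adjusted p = 0.013). Tinagl1 rose and Nid2 fell.

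**Figure D4:**
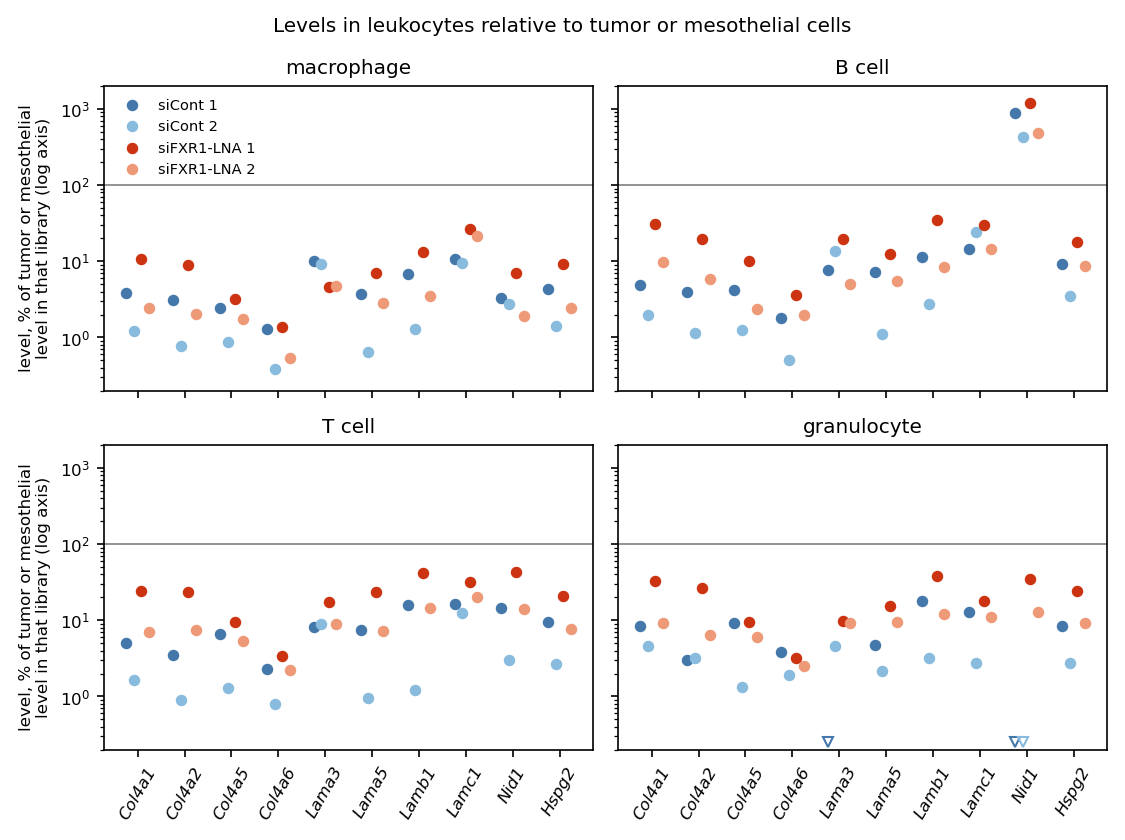
Level of each member in macrophages, B cells, T cells and granulocytes as a percent of its level in the tumor or mesothelial cells of the same library (log axis), with 1 point per library, open triangles at the bottom for 0 UMIs and a grey line at 100%. Nid1 in B cells lies between 434% and 1184%, and Lamc1 in macrophages at 9.47% to 26.5%.

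Nid1 was highest in B cells, antibody-producing lymphocytes. It was at 45.8 and 45.8 CPM in B cells of the siCont libraries and at 14.6 and 22.8 CPM in those of the siFXR1-LNA libraries, from 437, 377, 29 and 40 UMIs. In T cells it was at 0.757, 0.317, 0.525 and 0.670 CPM and in macrophages at 0.0877 to 0.288 CPM. With cells thinned to 1000 UMIs, 3.74%, 3.11%, 0.922% and 1.42% of B cells had a Nid1 UMI, against at most 0.0878% of T cells. The siFXR1-LNA libraries were below both siCont libraries, by -1.49 on the log2 scale (SE 0.27). This did not pass in the added fit of B cells (adjusted p = 0.10, edgeR) and did by DESeq2 (adjusted p = 0.018). It was called in only 4 of the 13 alternatives tried, which gave changes of -1.80 to -1.24. By edgeR 0 of 9 members tested were called there, against 0.12% of all genes, with 4 at an unadjusted p under 0.05, as had 1792 of 12451 genes. DESeq2 called 3 members and 460 genes. In 7 of the 10 members the groups did not overlap, in 6 of them with siFXR1-LNA higher, against 51.1% and 36.5% of all genes tested. In these B cells Lamc1 was at 23.0 and 30.7 CPM and at 73.7 and 33.7 CPM.

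Across 34 sums of a cell type and library, the gene whose log2(CPM + 5) followed that of the summed collagen IV members most closely was Hspg2 (Pearson r = 0.97), followed by Dcbld2, Wwtr1, Fermt2 and Gpc4 (r = 0.97, 0.96, 0.96 and 0.96). Lamb1 had r = 0.94, Lama5 0.89, Lama3 0.85, Lamc1 0.84 and Nid1 0.088. These values describe likeness over sums that share libraries and depth, and most of the range is between the tumor or mesothelial cells and the rest.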

How the data were processed

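Ascites of 4 samples was profiled by droplet 3' single-cell RNA sequencing. The authors made the deposited UMI counts per gene and barcode with Cell Ranger 7.0.0 (per the labels, on mm10), and left them unnormalized. The cell filter was 100 to 4800 detected genes and a mitochondrial share of up to 15%. In Seurat 5.3.0 (R 4.3.3) 2000 variable genes, 50 principal components and a resolution of 0.1 were used without integration or doublet removal, and macrophage, T cell and tumor or mesothelial clusters were clustered again. A cluster took the name of the marker list with the largest part raised (2 times the mean of the other clusters, in 5% of cells). This naming rule was written after the clusters were seen. Counts were summed per library and type, and the sums compared with edgeR 4.0.16 (TMM, filterByExpr, quasi-likelihood test, Benjamini-Hochberg adjustment over all genes, threshold 0.05). DESeq2 1.42.0 was an alternative. Both were run on counts simulated with known changes, the same spread for every gene and the same cell mix in every library. That cannot show how often they err on libraries as uneven as these. The members and gene lists were chosen with earlier results of these data known. All members are described, and from each other list the genes past the threshold (not for the other collagen IV, laminin and linker chains), the 2 with the highest mean level and the 5 genes most like collagen IV, besides genes named for a comparison after their values were seen (Itga3, Serpinh1, Col4a3, Col4a4 and Malat1). The counts and calls of that list of chains are not reported here. The labels number replicates without saying that a number joins samples of the groups, and the libraries are the replicates. Precision is limited by 2 libraries a group and, for siCont replicate 2, by 123 tumor or mesothelial cells.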

Additional observations from a re-analysis of the deposited data

How the results depend on the processing

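In the tumor or mesothelial cells 1032 genes and 1 member were called. The counts were 54 and 0 with each cell named from its own marker UMIs (278 cells, fewer than in the cluster), 1959 and 3 with no filter on low counts, 236 and 0 in sub-cluster 3 alone, and 1306 and 2 in sub-clusters 0 and 1. Leaving out 1 library gave 565 to 2088 genes and 0 to 4 members. In macrophages 2755 genes and 1 member were called, with 3307 and 2 by DESeq2, 4064 and 6 with no filter, and 543 to 2405 genes and 1 to 2 members on leaving out 1 library (543 without siFXR1-LNA replicate 1, 1076 without siFXR1-LNA replicate 2). In B cells 15 genes and 0 members were called, with 69 genes by single-cell naming, 460 genes and 3 members by DESeq2, 1209 and 6 with no filter, and 0 to 694 genes and 0 to 5 members on leaving out 1 library.

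With the replicate number as a block, the counts were 1642 genes and 1 member in tumor or mesothelial cells, 3730 genes and 8 members in macrophages, and 778 genes and 5 members in B cells. The labels do not say that numbers pair samples, and deviations of same-numbered libraries correlated at 0.0072 (tumor or mesothelial) and 0.36 (macrophages).

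Signs turned by single-cell naming for Col4a5 (-0.057), Lama5 (-0.19) and Hspg2 (-0.10), without siCont replicate 1 for Col4a1 and Lama5 (ranges on leaving out 1 library -0.063 to 0.56 and -0.11 to 0.30, the highest without siCont replicate 2), in sub-clusters 0 and 1 for Lama5 (-0.034) and in sub-cluster 3 for Lamb1 (-0.32), none of them past the threshold. The causes were not tested. The Col4a6 cell share difference of 11.5 percentage points was 4.90 at 500 UMIs a cell and 17.9 at 2000, since deeper cells show more genes. Leaving out cells with a UMI of Ptprc, Lyz2 or Hbb-bs left 8 cells and gave no value, and leaving out cells with a Ptprc UMI was tried instead. That, hemoglobin genes left out, the sub-cluster fits and the B cell fit were added after the data were seen.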
